A study of Rattus norvegicus with 18 samples.

Results

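Interferon response genes were followed across cultured rings of rat thoracic aorta left untreated or exposed to angiopoietin-1 (Ang1) or vascular endothelial growth factor (VEGF). The set holds 39 genes chosen by name, and a gene was measured where at least 1 probe set of either array type is annotated to it alone. This found 37 of the 39, 26 on array A (Affymetrix RAE230A) and 12 on array B (RAE230B), with Irf9 on both, and no probe set of its own for Gbp5 or Ifi47. Of their 46 probe sets, 40 passed a filter on dim signal, and these represent 35 genes, 25 (array A) and 11 (array B). All kept probe sets together represent 7177 genes (array A) and 4035 (array B). Socs1 and Ifih1 did not pass.

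The rings came from male Fisher 344 rats 5 weeks old, were 2 mm wide and were kept in serum-free medium. On day 13 some received recombinant human VEGF at 10 ng/ml and some received recombinant human Ang1 at 100 ng/ml together with a poly-His antibody at 5 ug/ml, and no antibody is described for the untreated or VEGF rings. Each RNA pooled 4 to 6 rings, and each of the 3 groups has 3 RNAs, so 9 RNAs were hybridised to both array types. The growth protocol gives 14 days of culture for untreated rings and 13 days for Ang1 and VEGF rings, a difference that goes with the groups. The sample titles and extraction notes give 20 h of treatment, where the design text gives 18 h. That text also says that 3 animals each gave 1 RNA to every group, although the labels do not tie a replicate number to an animal. The aim stated in the series title is to find genes associated with the angiogenic response to either factor.

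Interferons are secreted cytokines that cells release when they sense foreign nucleic acid or when lymphocytes are activated. Type I interferons act through a receptor that leads Stat2 and Irf9 into a complex binding the interferon-stimulated response element (ISRE), and interferon-gamma acts through Ifngr1 and Ifngr2 on genes that carry the gamma-activated site (GAS). In the vessel wall, endothelial cells, smooth muscle cells, fibroblasts and resident macrophages can all respond to them.

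The promoters of 6 members are printed because they carry one or the other element and belong to genes on which the results below turn. All are RefSeq sequences on build GRCr8, 300 bases long, from 250 bases before the annotated start to 50 after it, written 5′ to 3′ on the gene's own strand. The ISRE core searched was GAAANNGAAA and the GAS was TTCNNNGAA, both on either strand, and capitals mark every match. The first 4 genes hold an ISRE match: Irf7 (chr1:205799974-205800273, minus strand), Oas1a (chr12:41330216-41330515, plus strand), Cxcl10 (chr14:15988816-15989115, plus strand) and Ifit3 (chr1:241527076-241527375, plus strand). The other 2 hold a GAS match and no ISRE match: Irf1 (chr10:38417685-38417984, plus strand) and Slfn2 (chr10:68450611-68450910, plus strand).
Irf7: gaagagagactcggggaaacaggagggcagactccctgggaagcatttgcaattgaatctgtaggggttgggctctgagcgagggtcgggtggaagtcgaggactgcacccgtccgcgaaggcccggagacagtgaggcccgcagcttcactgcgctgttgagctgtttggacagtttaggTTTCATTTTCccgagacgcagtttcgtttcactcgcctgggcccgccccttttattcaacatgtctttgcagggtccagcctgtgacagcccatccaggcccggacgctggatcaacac
Oas1a: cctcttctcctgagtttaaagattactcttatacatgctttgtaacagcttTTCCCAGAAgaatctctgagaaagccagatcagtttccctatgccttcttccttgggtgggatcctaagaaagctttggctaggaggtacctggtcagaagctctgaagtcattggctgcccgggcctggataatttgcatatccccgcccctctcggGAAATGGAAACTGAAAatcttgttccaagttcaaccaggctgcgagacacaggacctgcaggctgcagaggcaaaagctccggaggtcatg
Cxcl10: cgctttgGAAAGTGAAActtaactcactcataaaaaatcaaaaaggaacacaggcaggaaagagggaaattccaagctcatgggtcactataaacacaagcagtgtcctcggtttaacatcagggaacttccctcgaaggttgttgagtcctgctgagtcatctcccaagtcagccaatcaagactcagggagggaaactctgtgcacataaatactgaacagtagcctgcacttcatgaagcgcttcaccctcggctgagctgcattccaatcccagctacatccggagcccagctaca
Ifit3: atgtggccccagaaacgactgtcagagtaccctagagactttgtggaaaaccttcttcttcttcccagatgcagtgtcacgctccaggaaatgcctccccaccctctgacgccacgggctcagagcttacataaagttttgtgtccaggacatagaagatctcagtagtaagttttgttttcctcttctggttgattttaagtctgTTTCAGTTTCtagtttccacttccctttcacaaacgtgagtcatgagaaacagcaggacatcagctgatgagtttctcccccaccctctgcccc
Irf1: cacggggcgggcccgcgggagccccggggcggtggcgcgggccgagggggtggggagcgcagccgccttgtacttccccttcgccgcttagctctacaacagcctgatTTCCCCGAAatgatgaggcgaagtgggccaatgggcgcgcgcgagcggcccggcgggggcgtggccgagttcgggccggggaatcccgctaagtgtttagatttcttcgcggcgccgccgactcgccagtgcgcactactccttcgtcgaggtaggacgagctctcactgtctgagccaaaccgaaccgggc
Slfn2: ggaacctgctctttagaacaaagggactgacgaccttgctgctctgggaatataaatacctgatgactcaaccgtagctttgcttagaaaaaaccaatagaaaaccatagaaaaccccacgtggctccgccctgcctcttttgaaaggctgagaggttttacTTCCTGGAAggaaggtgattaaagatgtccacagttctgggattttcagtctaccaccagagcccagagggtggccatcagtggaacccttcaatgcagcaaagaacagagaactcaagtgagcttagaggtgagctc

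The promoter table held 32 of the 39 members, with 33 promoters, and did not hold Ifit1, Ifit2, Mx2, Isg15, Ifitm1, Usp18 or Dhx58. The ISRE core was present in 18 of the 33 (54.5%), against 3.92% of all 33469 promoters of that length. The GAS was present in 12 of the 33 (36.4%), against 8.87% of all. In the printed Irf7 promoter the ISRE match began 69 bases before the start, in Ifit3 44 bases before it and in Cxcl10 243 bases before it. Oas1a held ISRE matches 41 and 35 bases before the start that overlap each other, and a GAS match 199 bases before it. The GAS match lay 142 bases before the start in Irf1 and 88 bases before it in Slfn2. The promoters of Ifngr1 and Ifngr2, the interferon-gamma receptor chains, held neither motif. A match is a description of letters in the window and not evidence of binding.

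Levels are given as log2 of the signal plus 16 after quantile normalisation within an array type, and each is comparable only for the same probe set across RNAs. Untreated 2 and Ang1 2 stood apart from the other RNAs on both array types. Their signal from the 3′ Gapdh control was 64.4 and 446.9 on array A, where the other 7 RNAs lay between 2217.8 and 3246.8. Their median correlation with the other arrays was 0.898 and 0.805 (array A) and 0.853 and 0.648 (array B), where the lowest of the rest were 0.933 and 0.879. Of the defining cell type markers on array A, 10 of 11 for smooth muscle, 9 of 9 for endothelium, 10 of 10 for fibroblasts and 18 of 19 for macrophages passed the filter. The same held for 2 of 10 lymphocyte markers, 0 of 3 neutrophil markers and 0 of 2 dendritic cell markers.

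Ifngr1, the ligand-binding chain of the interferon-gamma receptor, had log2 levels of 9.359, 7.998 and 9.498 in the untreated RNAs, 9.82, 9.04 and 9.92 after Ang1, and 9.95, 9.84 and 10.04 after VEGF. Every VEGF value lay above every untreated value, and the lowest values of the untreated and Ang1 groups were those of the RNAs that stood apart. The VEGF difference from untreated was 0.99 ± 0.41 (SE) on the log2 scale, a fold of 1.98 on that scale, with a limma unadjusted p of 0.036 and an adjusted p of 0.9999. Without those RNAs the difference was 0.51. Within the replicate numbers it was 0.59, 1.84 and 0.54.

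Ifngr2, the signal-transducing chain of that receptor, was at 8.48, 7.80 and 8.05 untreated, 8.62, 8.05 and 8.37 after Ang1, and 8.84, 8.89 and 9.05 after VEGF. The VEGF values lay above all others, and the untreated and Ang1 values overlapped. VEGF exceeded untreated by 0.82 ± 0.29 (SE), with a limma unadjusted p of 0.017 and an adjusted p of 0.9999. The Ang1 difference was 0.24 ± 0.29 for Ifngr2 and 0.64 ± 0.41 for Ifngr1. Neither receptor chain passed the adjusted threshold in any comparison.

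**Figure D1:**
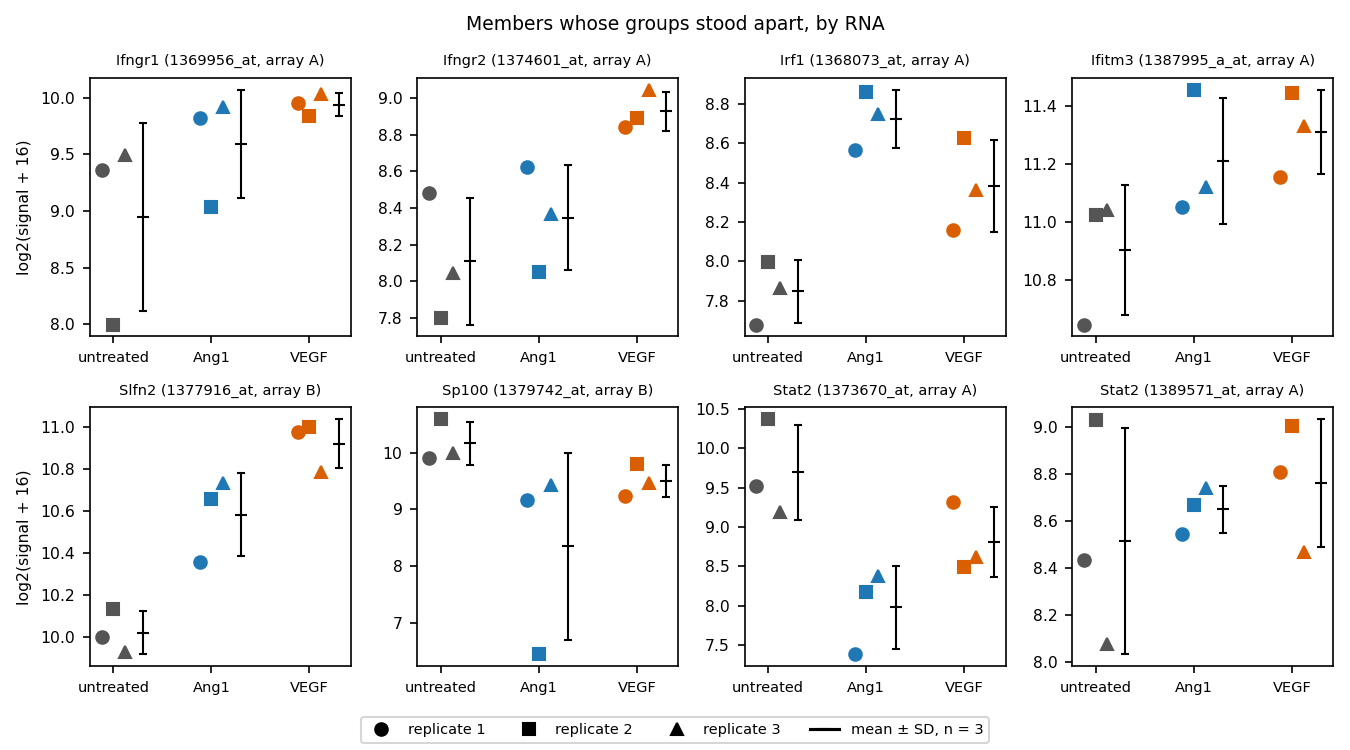
Log2(signal + 16) of 7 members in each of the 9 RNAs, by treatment group, with symbols for the replicate numbers and a bar for the mean ± SD of 3 RNAs. The VEGF values of Ifngr1, Ifngr2, Irf1, Ifitm3 and Slfn2 lie above the untreated ones, and the 2 probe sets of Stat2 differ in how Ang1 and untreated values are placed.

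Irf1, a transcription factor induced rapidly through the GAS, was at 7.678, 7.997 and 7.866 untreated, 8.57, 8.86 and 8.75 after Ang1, and 8.16, 8.63 and 8.36 after VEGF. Both treated groups lay above the untreated group without overlap. The Ang1 difference was 0.88 ± 0.26 (SE), a fold of 1.84, with a limma unadjusted p of 0.0070 and an adjusted p of 0.953, and the VEGF difference was 0.54 ± 0.26 with an unadjusted p of 0.067. Within the replicate numbers the Ang1 difference was 0.89, 0.86 and 0.88. Across the alternatives tried it ranged from 0.67 to 0.98.

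Stat2, a subunit of the ISRE-binding complex, is read by 2 kept probe sets that disagreed. The brighter, 1373670_at, gave 9.52, 10.37 and 9.19 untreated, 7.38, 8.18 and 8.38 after Ang1, and 9.32, 8.49 and 8.62 after VEGF. The Ang1 values lay below every untreated value, by 1.71 on the log2 scale (difference −1.71 ± 0.40, SE; limma unadjusted p = 0.0015, adjusted p = 0.953). The other, 1389571_at, gave 8.44, 9.03 and 8.08 untreated and 8.54, 8.67 and 8.74 after Ang1. Those values overlapped, with a difference of 0.13 ± 0.31. The VEGF difference was −0.88 ± 0.40 on the first probe set and 0.24 ± 0.31 on the second, so the direction for Stat2 depends on the probe set.

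Irf8, a factor best known from myeloid cells, was at 6.47, 6.05 and 6.58 untreated, 6.86, 6.68 and 6.92 after Ang1, and 7.32, 6.81 and 6.22 after VEGF. The Ang1 values did not overlap the untreated ones (difference 0.46 ± 0.33, SE), and the VEGF values did. Irf7, which amplifies the type I interferon response, ran from 7.85 to 10.93 within the untreated group and from 8.60 to 11.40 within the Ang1 group. Its VEGF and Ang1 differences, 0.46 ± 0.83 and 0.37 ± 0.83, were smaller than their SEs. Irf9, the DNA-binding subunit of the ISRE complex, was at 10.48, 10.36 and 9.81 untreated, 9.96, 8.49 and 10.06 after Ang1, and 10.69, 10.64 and 9.94 after VEGF on array B. The groups overlapped, and its array A probe set had a VEGF difference of −0.28 ± 0.37 against 0.21 ± 0.45 on array B.

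Among the RNA sensors, the RNA helicase regulator Dhx58 had the largest difference between the factors. Its brightest probe set, 1385439_x_at, gave 8.26, 8.21 and 6.52 untreated, 7.42, 7.12 and 6.94 after Ang1, and 8.74, 8.63 and 7.66 after VEGF. Each VEGF value lay above each Ang1 value, while the untreated values spanned both. The difference of VEGF from Ang1 was 1.19 ± 0.49 (SE), with a limma unadjusted p of 0.034 and an adjusted p of 0.561. The other Dhx58 probe sets gave 0.77 ± 0.67 and 1.19 ± 0.65. Oasl, an oligoadenylate synthetase-like protein, was at 7.75, 8.97 and 6.88 untreated, 8.19, 8.50 and 8.08 after Ang1, and 8.06, 7.92 and 8.27 after VEGF, all within the untreated range. Oas1a, which makes the oligoadenylates that activate RNase L, and Eif2ak2, the RNA-activated kinase PKR, had VEGF differences of 0.38 ± 0.55 and 0.13 ± 0.59.

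Of the antiviral effectors, Ifit2, which binds viral RNA, was at 11.15, 12.08 and 10.44 untreated, 10.93, 11.41 and 10.61 after Ang1, and 11.58, 11.70 and 10.66 after VEGF. The 3 groups overlapped, and the lowest RNA of each carries the number 3. Isg20, an exonuclease of RNA, was at 6.81, 6.93 and 6.96 untreated, 7.03, 7.87 and 6.69 after Ang1, and 7.17, 7.27 and 7.58 after VEGF. The VEGF group lay above the untreated group (difference 0.44 ± 0.33, SE), and the Ang1 group overlapped it. The VEGF differences of the other effectors were 0.56 ± 0.69 for Rsad2 (viperin), 0.52 ± 0.63 for Mx2 and 0.37 ± 0.82 for Mx1, both dynamin-like GTPases, 0.29 ± 0.42 for the virion tether Bst2, −0.016 ± 0.40 for Ifit1 and −0.030 ± 0.44 for Ifit3. None exceeded its SE.

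Ifitm3, a membrane protein that blocks viral entry, was at 10.65, 11.02 and 11.04 untreated, 11.05, 11.46 and 11.12 after Ang1, and 11.16, 11.44 and 11.33 after VEGF. Both treated groups lay above the untreated group, Ang1 by a narrow margin. The differences were 0.41 ± 0.23 (SE) for VEGF and 0.31 ± 0.23 for Ang1, and the Ang1 difference became −0.24 when arrays were centred on their medians. Its relatives Ifitm1 and Ifitm2 differed by 0.014 ± 0.42 and 0.071 ± 0.33 after VEGF. These genes, Mx1 and Mx2, and the probe sets of Dhx58 with an x or a in their names have close relatives or shared sequence, so their signals may not be fully separate.

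The inducible GTPases act on membranes around intracellular pathogens. Gbp2 ran from 7.56 to 9.79 in untreated, from 7.80 to 9.97 in Ang1 and from 7.78 to 9.38 in VEGF RNAs, nearly the same range in each group. Igtp was at 8.46, 9.52 and 8.56 untreated, 8.44, 7.27 and 8.39 after Ang1, and 9.20, 9.08 and 8.55 after VEGF. The highest Ang1 value, 8.44, lay just below the lowest untreated value, 8.46, and the difference of −0.81 ± 0.43 (SE) became −0.10 without the RNAs that stood apart. Irgm differed by 0.014 ± 0.38 after VEGF and −0.28 ± 0.38 after Ang1.

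Isg15, a ubiquitin-like protein joined to other proteins during the response, was at 10.63, 11.15 and 9.46 untreated, 10.37, 11.10 and 9.49 after Ang1, and 10.82, 11.16 and 10.41 after VEGF. The RNAs numbered 3 were the lowest of each group, and the groups overlapped. Usp18, which removes Isg15 and dampens receptor signalling, differed by 0.11 ± 0.66 (SE) after VEGF and 0.44 ± 0.66 after Ang1.

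Of the secreted ligands, the chemokine Cxcl11 was at 9.31, 10.21 and 7.72 untreated, 9.06, 8.77 and 9.11 after Ang1, and 9.78, 9.99 and 8.81 after VEGF. All treated values lay inside the untreated range. Cxcl10, which attracts T cells through the same receptor, ran from 5.82 to 9.51 untreated and from 7.99 to 8.98 after VEGF. Its VEGF difference of 0.88 ± 0.79 (SE) became −0.0063 without untreated 3. The death ligand Tnfsf10 (TRAIL) differed by 0.39 ± 0.61 after VEGF and −0.24 ± 0.61 after Ang1.

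Slfn2, a Schlafen family gene that restrains proliferation of immune cells, was at 10.00, 10.13 and 9.93 untreated, 10.36, 10.66 and 10.73 after Ang1, and 10.98, 11.00 and 10.79 after VEGF. The 3 groups did not overlap, with untreated lowest and VEGF highest. The VEGF difference was 0.90 ± 0.27 (SE), a fold of 1.86, with a limma unadjusted p of 0.0076 and an adjusted p of 0.9994, and it ranged from 0.84 to 0.98 across the alternatives. The Ang1 difference of 0.56 ± 0.27 did not keep its sign, at −0.33 on the values as deposited and −0.23 with median centring.

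Sp100, a component of PML nuclear bodies, was at 9.90, 10.59 and 9.99 untreated, 9.17, 6.45 and 9.43 after Ang1, and 9.24, 9.80 and 9.47 after VEGF. Both treated groups lay below the untreated group, and Ang1 2 stood far below the other Ang1 RNAs. The Ang1 difference was −1.81 ± 0.67 (SE; limma unadjusted p = 0.021, adjusted p = 0.466), and it was −0.67 without the RNAs that stood apart. On the values as deposited it was −2.34 with an adjusted p of 0.0134, the single member result to pass the threshold under any alternative. Ifi27, an interferon-induced membrane protein, was at 12.22, 10.04 and 11.88 untreated, 12.41, 10.67 and 12.33 after Ang1, and 12.31, 12.80 and 11.68 after VEGF, so that its lowest values were again those of the RNAs that stood apart. Ifi35 and Ifi44 differed by 0.51 ± 0.38 and 0.085 ± 0.44 after VEGF.

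**Figure D2:**
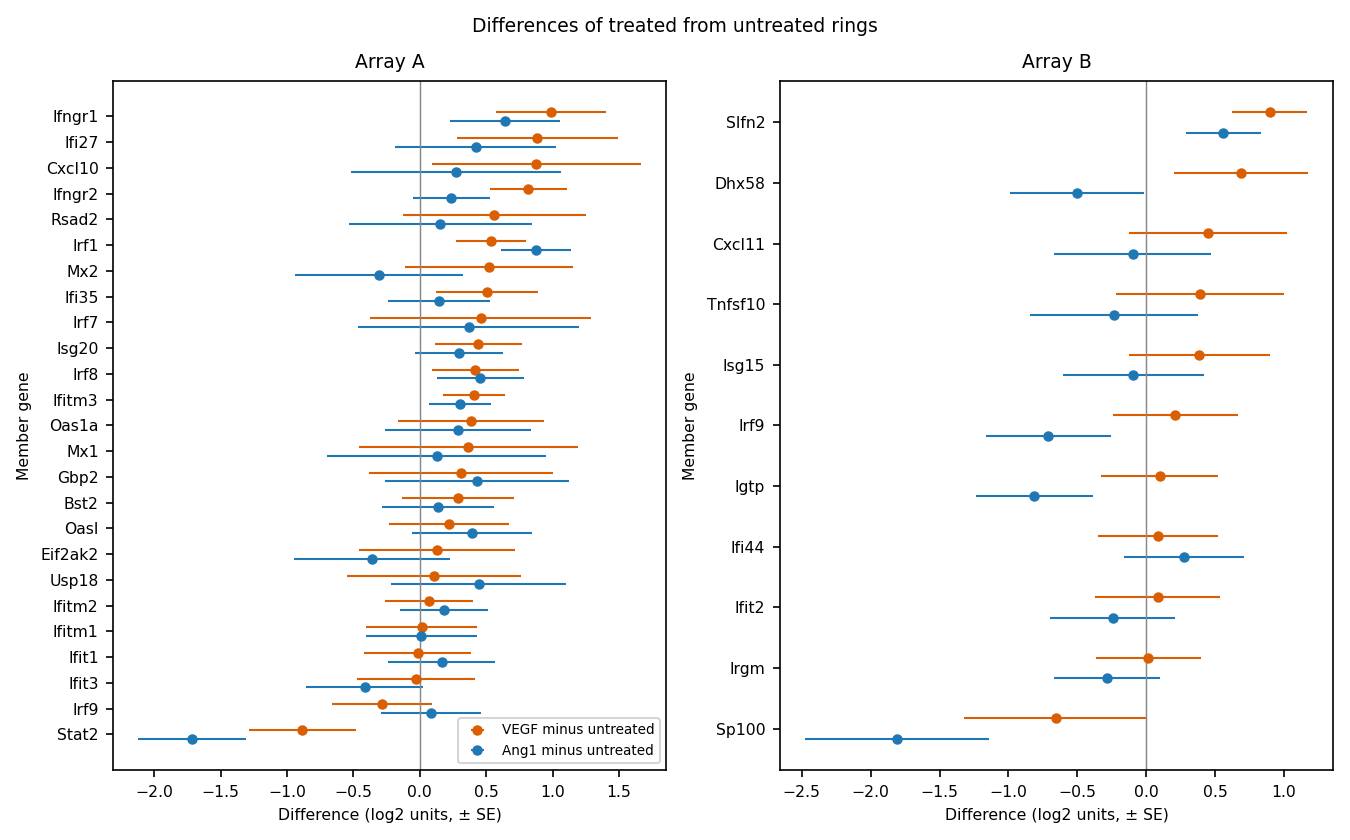
Difference of VEGF (orange) and Ang1 (blue) from untreated rings in log2 units, with its SE from the fit over 9 arrays, for 25 members (array A) and 11 (array B), ordered by the VEGF difference. Most VEGF differences lie above 0 with SEs that reach or cross it, and on array B 9 of 11 Ang1 differences lie below 0.

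Taken by counts, VEGF rings had the higher mean in 21 of 25 members (array A) and in 10 of 11 (array B). The median member difference was 0.38 (array A) and 0.21 (array B), beside −0.0064 and −0.0092 over all probe sets tested. No member passed the limma threshold of an adjusted p under 0.05, and neither did any other probe set (0% on either array). At an unadjusted p under 0.05, Ifngr1 and Ifngr2 were higher on array A, where 0.588% of all probe sets were higher and 1.06% lower, and Slfn2 was higher on array B, where 0.382% were higher and 0.338% lower. The VEGF and untreated values did not overlap for 5 members in the higher direction on array A (Ifngr1, Ifngr2, Irf1, Ifitm3, Isg20) and for none in the lower direction, beside 3.63% and 4.81% of all probe sets. On array B this was so for Slfn2 in the higher direction and Sp100 in the lower, beside 2.53% and 3.91%. VEGF exceeded untreated within each of the 3 replicate numbers for 9 of 25 members (array A) and 4 of 11 (array B), beside 12% and 9.62% of all probe sets. Without untreated 3 the median member difference was −0.060 (array A) and −0.14 (array B), so its sign changed. That setting keeps VEGF 3, and the RNAs numbered 3 were low in many members, as described below. It is therefore not balanced over the replicate numbers.

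Ang1 rings had the higher mean in 21 of 25 members on array A, where the median difference was 0.24 beside −0.030 over all probe sets. With median centring, which moved the median of all probe sets to −0.23, this became 10 of 25 and a median of −0.037, and the median was −0.10 without Ang1 2. On array B Ang1 rings had the higher mean in 2 of 11 members, with a median of −0.24 beside −0.012 over all, and in 0 of 11 on the values as deposited or median-centred, where the median of all probe sets was −0.29 and −0.20. Its median was −0.76 without untreated 3 and 0.18 without untreated 2. No probe set passed the adjusted threshold on either array (0%). At an unadjusted limma p under 0.05, Irf1 was higher and Stat2 (1373670_at) lower on array A, beside 1.08% of all probe sets higher and 2.09% lower, and Sp100 was lower on array B, beside 4.43% higher and 6.04% lower. Non-overlapping values were found for Irf1, Ifitm3 and Irf8 in the higher and Stat2 in the lower direction on array A, beside 3.57% and 5.54%. On array B they were found for Slfn2 in the higher direction and for Sp100 and Igtp in the lower, 1 and 2 of 11 members, beside 8.73% and 8.76%. Ang1 exceeded untreated within every replicate number for 7 of 25 members (array A) and 1 of 11 (array B), beside 14.1% and 19.8%. The VEGF and Ang1 comparisons share the untreated RNAs, so their values are not independent.

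Set directly against Ang1, VEGF rings had the higher mean in 17 of 25 members on array A (median difference 0.15, beside 0.021 over all) and 10 of 11 on array B (0.55, beside 0.041). Without Ang1 3 the array A median was −0.024. The adjusted threshold was passed by no probe set (0% on both arrays). At an unadjusted limma p under 0.05 no member was called on array A, beside 0.956% of all probe sets higher and 1.03% lower. With the replicate number as a block 1 member was, Mx2 (0.83 ± 0.36, SE; unadjusted p = 0.047 in place of 0.218), beside 2.62% higher. Dhx58 was the one member called on array B, beside 3.89% higher and 4.58% lower. The array B median was 1.23 on the values as deposited and 1.10 with median centring, where all probe sets shifted by 0.35 and 0.22. Ang1 3 had the dimmest array B before normalisation, with a median log2 signal of 6.13 against 7.07 to 7.71 for the others.

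**Figure D3:**
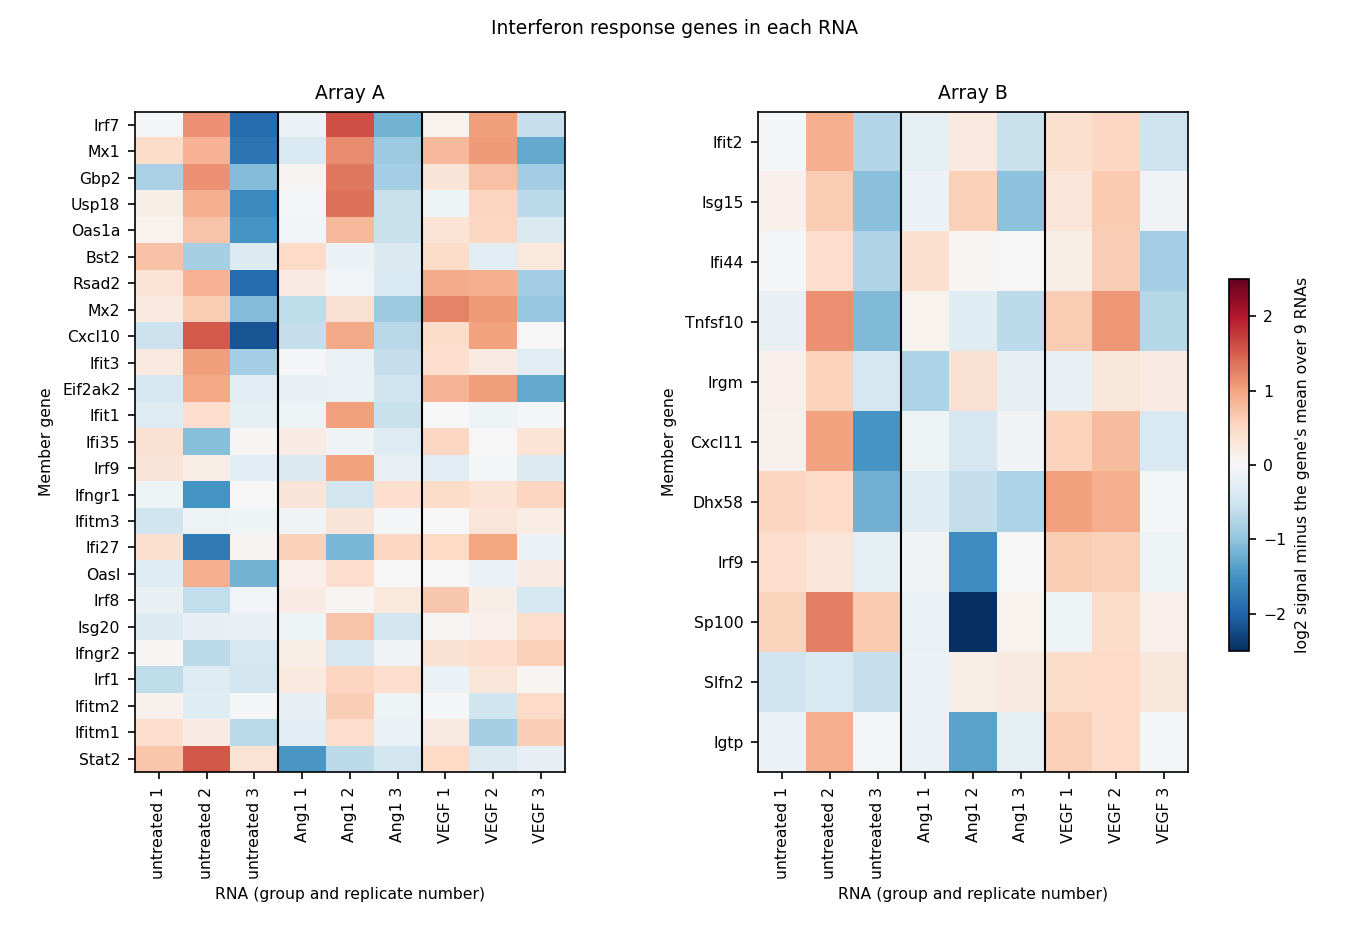
Log2 signal of each member minus its own mean over 9 RNAs, for 25 genes (array A) and 11 (array B), with RNAs in columns by group and replicate number and genes ordered by the share of variation that goes with the replicate number. In upper rows such as Irf7 and Mx1 the RNAs numbered 3 are blue in all 3 groups. VEGF 3 lies above the gene's mean for Bst2 and near it for Cxcl10. In the lower rows of array A the RNAs numbered 3 are not blue in all 3 groups.

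A set of members followed the replicate number, a pattern noticed after the values were seen. The RNA numbered 3 was the lowest of its group in all 3 groups for 9 of 25 members on array A (Cxcl10, Gbp2, Ifit3, Irf7, Mx1, Mx2, Oas1a, Rsad2 and Usp18), beside 5.42% of all probe sets. On array B this held for 5 of 11 (Dhx58, Ifi44, Ifit2, Isg15 and Tnfsf10), beside 3.8%. Without untreated 2 and Ang1 2, which stood apart, it was 10 of 25 beside 12.3% (array A) and 5 of 11 beside 11.5% (array B). Number 1 was the lowest in all groups for 2 members (array A) and none (array B), beside 4.26% and 3.80% of all probe sets. Number 2 was so for 1 and none, beside 8.51% and 6.71%. Number 3 lay below number 1 in all groups for 12 of 25 and 5 of 11 members, beside 14.9% and 14.3% of all probe sets.

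Mx1 shows the pattern, with 9.31, 9.72 and 7.03 untreated, 8.47, 10.03 and 7.94 after Ang1, and 9.66, 9.92 and 7.57 after VEGF. In each group the RNA numbered 3 was the lowest. Irf7 followed the same order of numbers, with 9.73, 10.93 and 7.85 untreated, 9.63, 11.40 and 8.60 after Ang1, and 9.86, 10.83 and 9.20 after VEGF. Number 2 was the highest and number 3 the lowest in every group, and untreated 2 and Ang1 2 are the RNAs that stood apart. Rsad2 was at 9.65, 10.19 and 7.39 untreated, 9.53, 9.24 and 8.93 after Ang1, and 10.25, 10.21 and 8.45 after VEGF, again lowest in number 3. The second probe set of Ifit2 and the third of Dhx58 did not have number 3 lowest in every group.

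Number 3 differed from numbers 1 and 2 by a median of −0.41 over the members (array A) and −0.80 (array B), beside −0.017 and −0.0058 over all probe sets, in a limma fit with treatment as a further term. This contrast was chosen after the pattern had been seen in the same RNAs, so its SEs and adjusted p-values describe the pattern without testing it. The largest differences were Mx1 at −2.00 ± 0.32 (SE) and Irf7 at −1.85 ± 0.29, each with a limma adjusted p of 0.197. No member passed the adjusted threshold, and 0.021% of all probe sets (array A) and 0% (array B) were. The replicate number accounted for a median of 46.7% of a member's sum of squares (array A) and 44.0% (array B), beside 32.3% and 23.3% over all probe sets. The treatment group accounted for 11.9% and 11.6%, beside 19.3% and 25.7%. The share by number exceeded the share by group in 17 of 25 members (array A) and 6 of 11 (array B), near the 64.3% and 47.5% of all probe sets in which it did, so the count is no result about the members. Irf7 (89.4% by number) and Mx1 (87.9%) lay at one end, and Irf1 (85.1% by group) and Slfn2 (90.7%) at the other.

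**Figure D4:**
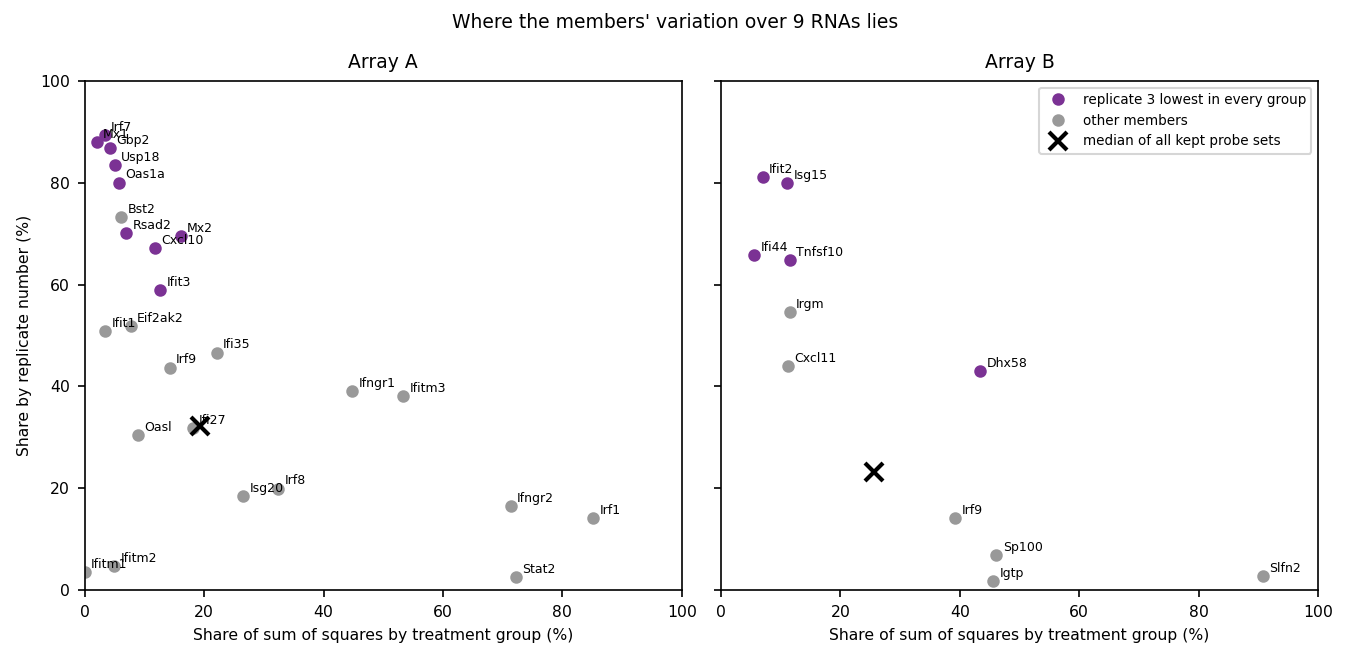
Share of each member's sum of squares over 9 RNAs that goes with the treatment group (horizontal, %) and with the replicate number (vertical, %), with members lowest in number 3 of every group in purple and the median of all kept probe sets as a cross. Mx1 and Irf7 sit at the upper left, and Irf1, Ifngr2, Stat2 and Slfn2 at the lower right.

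The promoters described above differed in the same division. Of the members lowest in number 3 of every group, 7 of the 9 in the promoter table (77.8%) held the ISRE core and 1 of 9 (11.1%) the GAS. Of the other kept members, 8 of the 19 in that table (42.1%) held the ISRE core and 9 of 19 (47.4%) the GAS. Irf7, Oas1a, Cxcl10 and Ifit3 are of the first kind, and Irf1 and Slfn2, in which number 3 was not the lowest of every group, are of the second. Mx1 held neither motif in its window. The groups were formed from the values, so this is a description without a test.

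**Figure D5:**
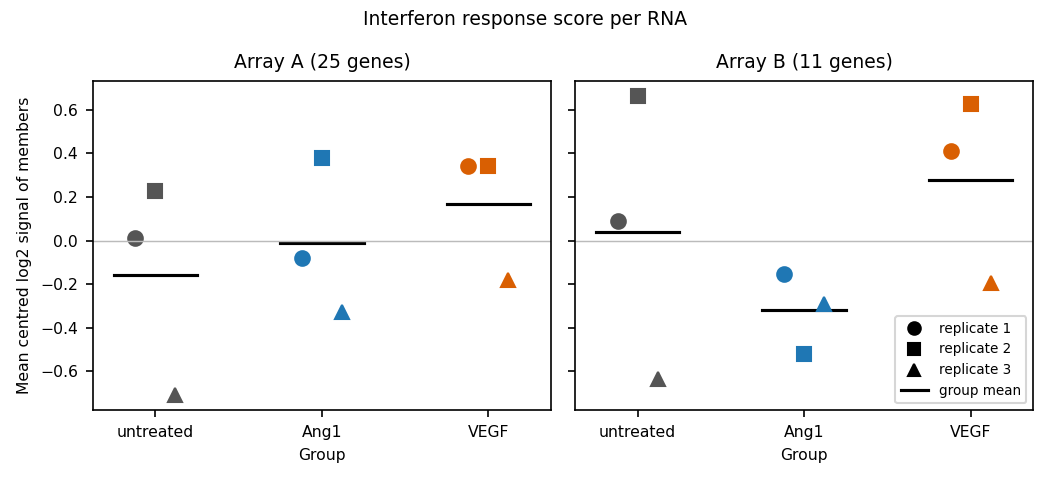
Mean of the members' log2 signals, each centred on its mean over 9 RNAs, for every RNA by treatment group, with symbols for the replicate numbers and a line for the group mean. On array A number 3 is the lowest RNA of each group; on array B that holds for untreated and VEGF but not for Ang1, where Ang1 2 is lowest.

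The mean centred log2 level of all members put these features in 1 value per RNA. On array A it was 0.01, 0.23 and −0.71 in the untreated RNAs, −0.08, 0.38 and −0.33 after Ang1, and 0.34, 0.34 and −0.18 after VEGF. Untreated 3 was the lowest of all 9, and the groups overlapped. On array B it was 0.09, 0.66 and −0.63 untreated, −0.15, −0.52 and −0.29 after Ang1, and 0.41, 0.62 and −0.20 after VEGF. Ang1 2 was the lowest of its group there, unlike on array A where it was the highest.

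Macrophage and smooth muscle markers were set beside these values. The mean centred level of 18 macrophage genes on array A was 0.25, −0.29 and −0.66 untreated, 0.21, −0.34 and 0.15 after Ang1, and 0.26, 0.21 and 0.20 after VEGF. It was low in untreated 3, as the members were, but not in Ang1 3 or VEGF 3. It was −0.29 and −0.34 in untreated 2 and Ang1 2, where the members were at 0.23 and 0.38. The summed signal of the macrophage genes ran from 18705 to 28711 untreated, from 22699 to 28449 after Ang1 and from 27481 to 30809 after VEGF. VEGF rings had the higher mean in 12 of 18 markers, none past an unadjusted limma p of 0.05. With the replicate number as a block 5 of the 18 were higher at that threshold and 0 lower, beside 1.62% and 1.47% of all probe sets, and without the RNAs that stood apart VEGF rings had the higher mean in 18 of 18. Ang1 rings had the higher mean in 13 of the 18 on array A, and in 17 of 18 without the RNAs that stood apart. With median centring the higher mean was found in 10 of 18 after VEGF and 9 of 18 after Ang1. The median of all probe sets then lay at −0.078 and −0.23, and that of the markers at 0.17 and −0.037. With the block 2 of the 18 were higher after Ang1 and 0 lower, beside 1.54% and 2.82% of all probe sets. On array B the summed signal of 5 markers ran from 7168 to 11856 untreated, from 5175 to 14423 after Ang1 and from 12306 to 14487 after VEGF. After VEGF 1 of the 5, Cybb (1.00 ± 0.35, SE; limma unadjusted p = 0.017), was higher at an unadjusted p under 0.05, beside 0.382% of all probe sets. After Ang1 1 of the 5 was higher at that threshold, beside 4.43%. In both comparisons 0 of the 5 were lower, and 0 passed the adjusted threshold. Number 3 was the lowest of every group for 2 of the 18 on array A, Cd53 and Cybb. The mean centred level of 10 smooth muscle genes on array A was highest in untreated 3 (0.62), where that of the members was lowest (−0.71). These smooth muscle markers had the lower mean in VEGF rings for 8 of the 10, with a median log2 difference of −0.44 beside −0.0064 over all probe sets. Pln (−1.36 ± 0.27, SE) and Tpm2 (−0.74 ± 0.29) were lower at an unadjusted limma p under 0.05, beside 1.06% of all probe sets, and the VEGF values lay below the untreated ones without overlap for 2 of the 10, beside 4.81%. Ang1 rings had the lower mean in 8 of the 10, with a median difference of −0.057, near the −0.030 over all probe sets. On the values as deposited Ang1 rings had the lower mean in 4 of the 10, with a median of 0.059 beside 0.080 over all. For VEGF that setting gave 7 of the 10 and a median of −0.34 beside 0.073. After Ang1, 1 of the 10 was lower at an unadjusted limma p under 0.05, beside 2.09% of all probe sets. The Ang1 values lay below the untreated ones without overlap for 2 of the 10, beside 5.54%. The summed signal of the 10 ran from 8630 to 13701 untreated, from 8106 to 8906 after Ang1 and from 7178 to 7861 after VEGF. In tissue RNA, fewer cells of a type and less RNA per cell cannot be told apart, and the part of macrophages or smooth muscle cells in the members' levels was not tested. The ratio of 3′ to 5′ actin signal, which reads RNA integrity, was 7.70, 8.29 and 12.4 in the numbers 3 on array A and between 1.86 and 9.12 in the other RNAs, and its part was not tested either.

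Other genes of the pathway were counted from fixed lists. Of those upstream (receptors, kinases, regulators), VEGF rings had the higher mean in 10 of 13 (array A) and 4 of 8 (array B), and Ang1 rings in 9 of 13 and 3 of 8. Of further induced genes, VEGF rings had the higher mean in 18 of 27 (array A) and 11 of 16 (array B), and Ang1 rings in 17 of 27 and 8 of 16. Over all probe sets the mean was higher after VEGF in 49.2% (array A) and 48.9% (array B), and after Ang1 in 47.0% and 49.2%. None of the listed pathway genes passed the adjusted threshold. At an unadjusted limma p under 0.05 stood Parp14 after VEGF (0.73 ± 0.32, SE), the ADP-ribosyltransferase, and after Ang1 Tapbp (0.64 ± 0.28), which loads peptides on MHC class I, Lap3 (−0.74 ± 0.29), a leucine aminopeptidase, and Nmi (−0.95 ± 0.38), an interferon-induced adaptor protein. For VEGF this was 1 of 27 induced genes on array A, beside 0.588% of all probe sets higher. For Ang1 it was 1 higher and 1 lower of 27 on array A, beside 1.08% and 2.09%. On array B it was 1 lower of 8 upstream genes, beside 6.04%. VEGF exceeded Ang1 at that threshold for 1 of 27 on array A, beside 0.956%, and for 1 of 8 and 1 of 16 on array B, beside 3.89%. Number 3 was the lowest of every group for 5 of the 27 and 2 of the 16 induced genes. It was so for 1 of 13 and 0 of 8 upstream genes, beside 5.42% (array A) and 3.8% (array B) of all probe sets. Tap1, the peptide transporter, was at 7.42, 5.00 and 7.10 untreated, 7.41, 4.92 and 7.68 after Ang1, and 7.93, 8.10 and 7.55 after VEGF. Its low values were those of the RNAs that stood apart.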

How the data were processed

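The members and gene lists were chosen with earlier results of these data known. The authors deposited array intensities, 1 signal per probe set, for which the submitters' processing notes name MAS5 without its scaling. The labels put untreated 1, on both array types, under a two-cycle labelling protocol and the other RNAs under a standard one. Gene symbols came from the platform annotation, in which 12783 of 15866 probe sets (array A) and 7564 of 15276 (array B) have 1 symbol. Signals plus 16 were log2-transformed and quantile-normalised within each array type. Probe sets below the 40th percentile of mean signal were left out, keeping 9520 and 9166. All 9 arrays of a type were fitted with limma 3.58.1 in R 4.3.3 (lmFit, eBayes with an intensity trend; Benjamini-Hochberg at 0.05). The model was tested on data simulated with no effect of the replicate number. At the adjusted threshold it recovered 16% (array A) and 6% (array B) of VEGF changes of 1 log2 unit. For changes of 2 log2 units it recovered 66% and 68%, so smaller changes would mostly be missed. Changes of 1, 2, 3 and 4 log2 units, in 50 probe sets each, were simulated together with noise independent between RNAs. The larger changes ease the adjusted threshold for the others, so these shares may exceed what the real arrays allow. A gene with several probe sets is represented by the brightest. Values in every RNA are given for members with an unadjusted p under 0.05, members whose treated and untreated values did not overlap, and the brightest member of each role; Mx1, Irf7, Rsad2 and the pattern by replicate number were chosen after the values were seen. 3 arrays a group limit the precision, and an exact permutation test of 3 against 3 cannot go below p = 0.1. The RNAs are separate samples per the design text.

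Replicate numbers are shared between groups, and the design text has each animal giving 1 RNA per group. Deviations of equal numbers from their group means correlated by 0.14 to 0.41 between VEGF and untreated and by 0.34 to 0.49 between Ang1 and untreated on array A, and by 0.16 to 0.29 and 0.14 to 0.25 on array B, so these comparisons were treated as paired in an alternative fit. Between VEGF and Ang1 the correlations ran from −0.15 to 0.23 and from −0.21 to 0.23, and the block was applied to that comparison as well. With the replicate block, 294 array A probe sets had an unadjusted p under 0.05 for VEGF against untreated, in place of 157; the adjusted calls stayed at 0.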

Additional observations from a re-analysis of the deposited data

Results flagged for a closer look

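The probe sets of 2 members lay below the filter on dim signal and entered none of the comparisons, yet were raised in single RNAs by more than 1 log2 unit over the highest untreated value. Socs1, the suppressor of cytokine signalling that interferons induce, stood at 7.67 in Ang1 2 on 1375568_at, where the highest untreated value was 5.49, and at 6.01 in the same RNA on 1371252_at, where it was 4.50. The other Ang1 RNAs were at 5.09 and 5.07 on the first probe set, and Ang1 2 is an RNA that stood apart throughout. Ifih1, the double-stranded RNA sensor MDA5, stood at 7.85 in VEGF 1 and 7.65 in VEGF 2 on 1394352_at, where the highest untreated value was 5.83, and at 5.39 in VEGF 3. No test was made of either.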

How the results depend on the processing

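No member passed the adjusted threshold with the replicate block or with it left out, and the block changed no adjusted call; at an unadjusted limma p under 0.05 it gave 294 probe sets in place of 157 for VEGF against untreated, 415 in place of 302 for Ang1 against untreated and 408 in place of 189 for VEGF against Ang1 on array A, and 98 in place of 66, 979 in place of 960 and 887 in place of 777 on array B. Leaving out 1 replicate, the VEGF difference of Cxcl10 ran from −0.0063 to 1.83. The median member difference of VEGF from untreated then ran from −0.060 to 0.55 on array A, and that of Ang1 from untreated from −0.76 to 0.18 on array B. With median centring the Ang1 difference of Ifitm3 was −0.24 and that of Slfn2 −0.23, which was −0.33 on the values as deposited. The median of VEGF against Ang1 on array B was 1.23 as deposited and 1.10 with median centring. The count of probe sets past the threshold, 0 in the reported fits, was 117 for Ang1 against untreated and 25 for VEGF against Ang1 on array B as deposited; with array quality weights it was 6 and 24 (array A) and 2 and 8 (array B).

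Counts by overlap were repeated under alternatives chosen after seeing the data. Members lower in Ang1 without overlap numbered 2 (array A) and 4 (array B) with median centring, where 11.1% and 17.1% of all probe sets were. Members higher in Ang1 on array B numbered 0 as deposited and 0 with median centring (0.0545% and 5.44% of all), and members lower in VEGF on array B numbered 0 with median centring (3.89% of all). Without untreated 2 and Ang1 2, 8 members were higher in VEGF on array A (7.86% of all), 6 were higher and 2 lower in Ang1 on array A (18.2% and 18.6%), and 2 were higher in Ang1 on array B (20.8%). Members lowest in number 3 of every group on array B numbered 3 with median centring (3.6% of all) and 6 as deposited (10.8%). Without untreated 2 and Ang1 2 they numbered 5 (11.5%). On array A they numbered from 8 with median centring (3.21% of all) to 10 without untreated 2 and Ang1 2 (12.3%). Over all alternatives, 42 of 468 member differences changed sign for VEGF against untreated on array A and 54 of 468 for Ang1 against untreated. Signals near the filter are close to background, and their differences are the least certain.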
